A study of Mus musculus with 11 samples.

Results

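The 10 genes described here, Lyz2, Wfdc17, Cd5l, Ms4a7, Mrc1, Cd163, Cd36, Pf4, F13a1 and Arg1, are used in mouse brain to tell macrophages of blood or border origin from resident microglia. They were chosen by symbol from a given list with earlier results of these libraries known. Their differences between the infarcted and non-infarcted side, over time and with drug treatment are therefore given as a description and support nothing. All 10 were found among the 22377 genes measured, and none of the 10 symbols is duplicated in the data. The mean level that would have settled a duplicated symbol was therefore not needed, but the list itself was drawn up with those earlier results known.

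Microglia live in the brain from early development, whereas monocytes enter from blood only after injury and turn into macrophages that clear dead tissue. Border macrophages sit along vessels and in the meninges, and are known for scavenger receptors that take up haemoglobin, glycoproteins and lipids. Lesion macrophages engulf lipid-rich debris, and the enzymes and receptors encoded by these genes belong to that work.

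Photothrombosis makes a small cortical stroke: the dye rose bengal is injected and light over the left parietal cortex clots the vessels beneath it. Levetiracetam (LEV) is a medicine against seizures whose target is SV2A, a protein of synaptic vesicles. Whole cerebral cortex of male C57BL/6N mice was measured by CAGE (cap analysis of gene expression), which counts short tags at the capped 5′ ends of transcripts, so that a level does not depend on transcript length. The series, by its title, concerns this stroke as a model of seizures and epilepsy after stroke in aged mice.

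There were 11 libraries, 1 per group. The infarcted and the non-infarcted side were each measured 7 d after the stroke with LEV and without it, 1 m after it with LEV and without it, and 2 m after it once LEV had been withdrawn for 2 weeks, and 1 library came from untreated naive cortex. The study's design text, which also describes LEV in drinking water at 5 mg/mL, 1 week of withdrawal, EEG electrodes and pentylenetetrazol injections, differs from the labels on when LEV was given; the labels were followed. It gives ages of 8 to 10 and 65 to 85 weeks without saying which library had which. The labels do not say whether both sides came from the same mouse or how many mice a library holds. Every p-value therefore describes the spread between these libraries only.

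Library totals ran from 12928291 to 21000367 tags, and levels are CPM, tag counts scaled to the library total. Exact 95% Poisson intervals on tags cover counting error only. A level at or under 3 tags was taken as the floor, and against such a library a fold is given only as a bound or with its interval. In whole cortex, fewer cells of a type and less RNA per cell cannot be told apart.

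The labelled cell types were set against markers of other cells. The sum of 12 homeostatic microglia genes was 523.3 to 1347 CPM on the infarcted side, against 329.7 to 397.1 CPM on the non-infarcted side. The sum of 9 monocyte genes was 29.8 to 48.9 CPM on the infarcted side, against 16.1 to 23.2 CPM on the non-infarcted side. In that list Ly6c2 and Ccr2, which mark monocytes fresh from blood, did not exceed 0.46 CPM in any library, and the border macrophage marker Lyve1 did not exceed 0.85 CPM. The sum of 9 other border macrophage genes was 9.996 to 47.8 CPM on the infarcted side and 9.05 to 12.4 CPM on the non-infarcted side. Some genes of these lists were well above the floor. At 7 d without LEV, S100a4 was 25.8 CPM on the infarcted and 5.89 CPM on the non-infarcted side, Plac8 6.45 and 0.945 CPM, and Stab1 27.1 and 4.17 CPM. Of these lists of 9, 3 monocyte and 5 border genes passed the filter on low values. Over the 5 states, 2 of the 3 and 0 of the 5 were called as higher, and 0 as lower, against 7.00% of all genes called in either direction. The data therefore do not show which macrophages the 10 genes come from. Tags of whole cortex also cannot be assigned to macrophages or to microglia. The 10 are called macrophage genes below after the given list.

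Sequence bears on the most abundant of them first. Lyz2 (GRCm38, chr10:117277331-117282321, minus strand, protein coding with 4 exons) has a near-identical neighbour, Lyz1, and a tag covers only the first bases of a transcript. In RefSeq's GRCm38.p6 sequence the first 50 transcribed bases of both differ at 1 base, A37G, counted from the RefSeq start with the Lyz2 base first. The base lies in the first coding stretch, printed here with it in capitals because it is what separates the genes at their 5′ ends.
Lyz2, chr10:117282223-117282242, minus strand: atgaagActctcctgactct
Lyz1, chr10:117292819-117292838, minus strand: atgaagGctctcctgactct
Lyz1 held 0 to 16 tags per library, at most 0.324% of the tags of both genes, and it had 0 tags in all 5 non-infarcted libraries and in naive. How tags of this shared stretch were placed is not given in the sources used here, so Lyz2 values are those of the pair as counted. For the other members with a RefSeq start, 0 other genes came within 5 mismatches over the same 50 bases.

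RefSeq promoters of 300 bases (250 before the start, 50 after) were found for 9 of the 10 genes, 11 promoters in all. Arg1 was not analysed here in this respect. They were searched on both strands for GAGGAA, the core bound by the myeloid factor PU.1, for TGCTGA, a half-site of MAF factors, and for TGANTCA, the AP-1 site. GAGGAA was found in 7 of 11 member promoters (63.6%), from 6 genes, against 28.3% of all 32851 promoters. TGCTGA was found in those of Cd36, Cd5l and Lyz2 (27.3%), against 19.5% of all. TGANTCA was found in 1, of Ms4a7, against 7.81% of all. A match describes letters and not binding.

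Below are the 120 bases before the start of 4 genes with matches, shown because their levels followed different courses: Cd5l peaked at 1 m, Pf4 and F13a1 at 7 d, and Cd36 was high at 7 d and again at 2 m. Capitals mark a motif.
Cd5l, chr3:87357761-87357880, plus strand: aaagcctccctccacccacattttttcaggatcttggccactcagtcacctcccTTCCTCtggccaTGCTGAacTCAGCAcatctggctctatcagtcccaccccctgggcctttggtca
Pf4, chr5:90772315-90772434, plus strand: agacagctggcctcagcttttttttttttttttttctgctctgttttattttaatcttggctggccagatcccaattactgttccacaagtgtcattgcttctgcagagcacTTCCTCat
F13a1, chr13:37050245-37050364, minus strand: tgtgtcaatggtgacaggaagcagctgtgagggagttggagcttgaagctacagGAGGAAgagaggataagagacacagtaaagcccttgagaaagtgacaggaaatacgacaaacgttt
Cd36, chr5:17835897-17836016, minus strand: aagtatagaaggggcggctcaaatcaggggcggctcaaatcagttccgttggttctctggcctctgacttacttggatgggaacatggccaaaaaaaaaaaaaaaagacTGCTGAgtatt
In Cd5l the PU.1 core, on the minus strand as TTCCTC, starts at position −66 and is followed by TGCTGA at −54 and its reverse complement TCAGCA at −46, which do not overlap. In Pf4 TTCCTC starts at −8, in F13a1 GAGGAA at −66, and in Cd36 TGCTGA at −11. The Cd36 window lies inside the gene's annotated span.

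The secreted proteins held most of the tags. Lyz2 encodes lysozyme M, which cleaves bacterial cell walls and is made by macrophages and neutrophils. On the infarcted side Lyz2 stood at 650.3 CPM with LEV and 754.6 CPM without at 7 d, at 54.4 CPM with LEV and 383.5 CPM without at 1 m, and at 87.7 CPM at 2 m. The non-infarcted libraries lay between 12.8 and 22.6 CPM and naive at 10.1 CPM. All 5 infarcted libraries were above all others, and their order, 7 d, 7 d with LEV, 1 m, 2 m and 1 m with LEV, had no overlapping intervals. Lyz2 made up 61.5% to 75.0% of the summed CPM of the 10 genes on the infarcted side, 36.3% to 48.6% on the non-infarcted side and 30.1% in naive.

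Wfdc17 (chr11:83703991-83706268, plus strand, 3 exons) encodes a small secreted protein with a WAP domain, known from activated mouse macrophages. Infarcted libraries held 87.7 CPM with LEV and 141.0 CPM without at 7 d, at 13.2 CPM with LEV and 125.6 CPM without at 1 m, and at 7.64 CPM at 2 m. The non-infarcted libraries lay between 3.95 and 7.55 CPM and naive at 6.65 CPM. By 2 m the infarcted level was beside the highest non-infarcted one, with overlapping intervals. Its neighbour on the same strand, Wfdc18, ran from 3.94 to 8.11 CPM over all 11 libraries and did not share its tags.

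Cd5l (chr3:87357881-87371073, plus strand, 6 exons) encodes a secreted protein of tissue macrophages with scavenger receptor domains. Its infarcted libraries stood at 5.74 CPM with LEV and 8.14 CPM without at 7 d, at 0.312 CPM with LEV and 24.8 CPM without at 1 m, and at 2.22 CPM at 2 m. All 6 other libraries held 0 to 3 tags, and naive held 0. Cd5l was the only member of the 10 that was highest at 1 m, at 345 tags without LEV and 6 tags with it.

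Ms4a7 (chr19:11321039-11336146, minus strand, up to 7 exons) encodes a tetraspanning membrane protein and in mouse brain marks macrophages other than microglia. Its infarcted libraries held 55.5 CPM with LEV and 69.1 CPM without at 7 d, at 6.92 CPM with LEV and 30.2 CPM without at 1 m, and at 15.6 CPM at 2 m. The non-infarcted libraries lay between 1.60 and 3.22 CPM and naive at 2.01 CPM. The order of the infarcted libraries was that of Lyz2, again with no overlapping intervals.

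**Figure D1:**
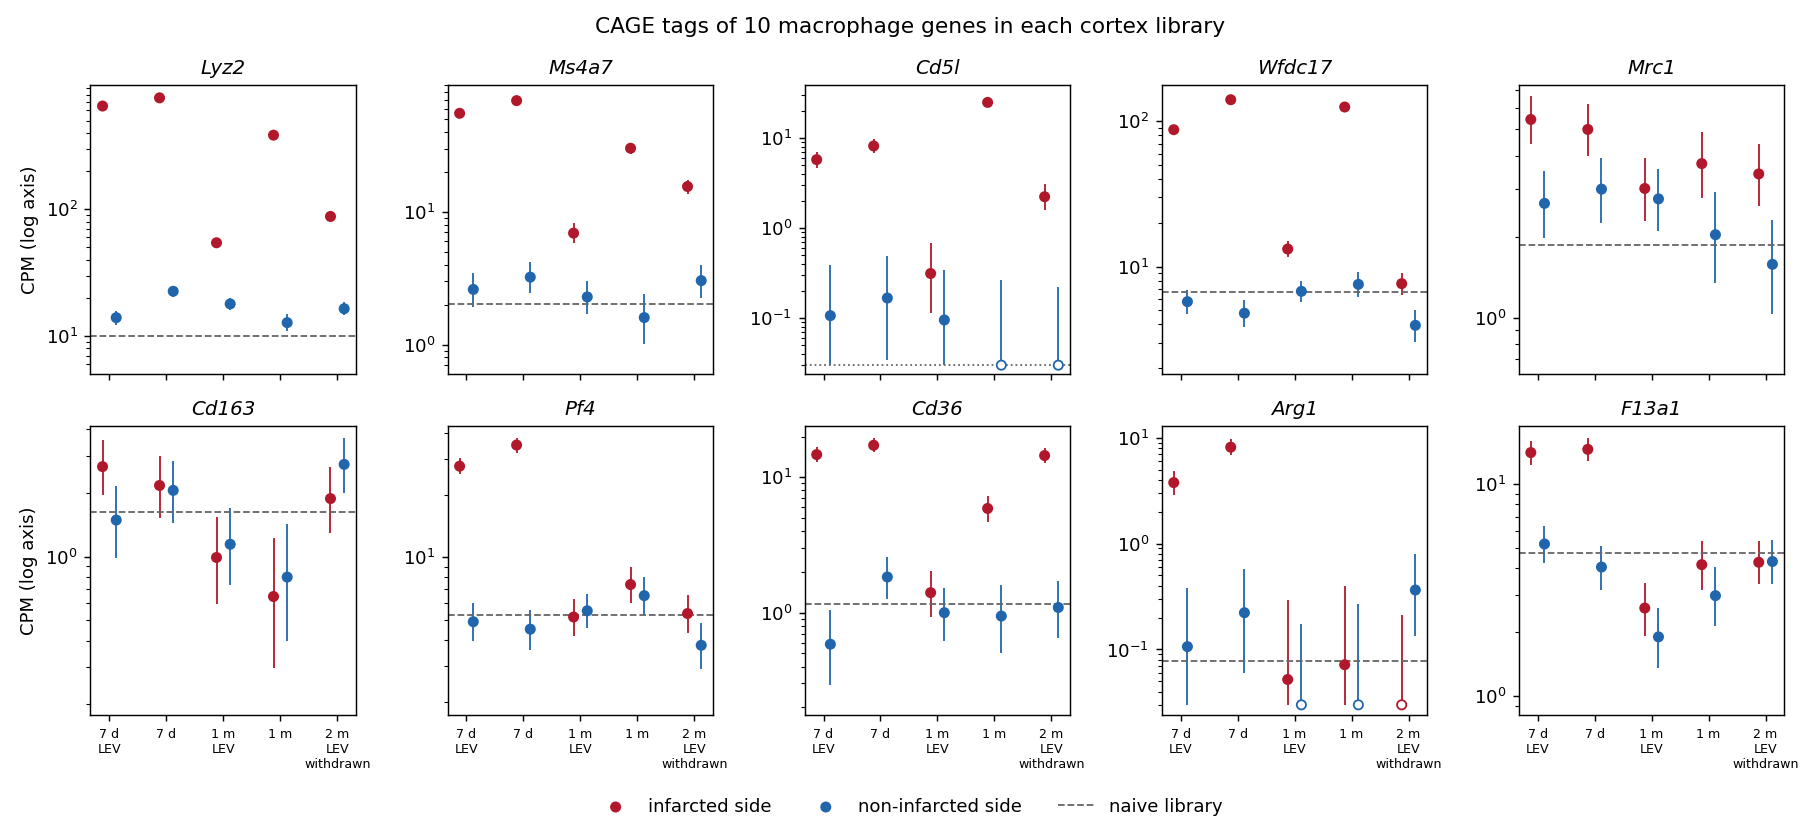
CPM of each of the 10 genes (log axis) by state, infarcted libraries in red left of non-infarcted in blue, with the naive library as a dashed line (dotted where it held 0 tags); bars are exact 95% Poisson intervals and open points are libraries with 0 tags. The intervals of Lyz2, Ms4a7 and Wfdc17 are apart between the sides in all 5 states. Those of Cd5l overlap at 1 m with LEV, where the libraries hold 6 and 2 tags (infarcted, non-infarcted).

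The scavenger receptors behaved unlike each other. Mrc1 (chr2:14229392-14332057, plus strand, up to 30 exons) encodes the mannose receptor, a marker of border macrophages. On the infarcted side it stood at 5.45 CPM with LEV and 5.003 CPM without at 7 d, at 3.02 CPM with LEV and 3.73 CPM without at 1 m, and at 3.42 CPM at 2 m, against 1.58 to 3.002 CPM on the non-infarcted side and 1.86 CPM in naive. The sides did not overlap, but the lowest infarcted and the highest non-infarcted library were 3.02 and 3.002 CPM. Neighbours in the order of its levels had overlapping intervals throughout.

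Cd163 (chr6:124304656-124330527, plus strand, up to 17 exons) encodes the receptor for haemoglobin bound to haptoglobin, and marks the same border cells. Its infarcted libraries ran from 0.646 CPM at 1 m without LEV to 2.67 CPM at 7 d with LEV, with a median of 1.88 CPM. Its non-infarcted libraries ran from 0.799 CPM at 1 m without LEV to 2.73 CPM at 2 m, with a median of 1.49 CPM, and naive held 1.62 CPM. The sides overlapped over almost their whole range, and 9 to 46 tags per library limit the precision.

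Cd36 (chr5:17781690-17888801, minus strand, up to 16 exons) encodes a class B scavenger receptor for oxidised lipids and fatty acids, and is also made by endothelial cells and platelets. The infarcted side had 14.7 CPM with LEV and 17.2 CPM without at 7 d, at 1.41 CPM with LEV and 5.89 CPM without at 1 m, and at 14.5 CPM at 2 m. The non-infarcted libraries lay between 0.585 and 1.83 CPM and naive at 1.16 CPM. Its 2 m level and both 7 d levels had overlapping intervals, and only the infarcted 1 m library with LEV lay within the non-infarcted range.

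Pf4 and F13a1 are shared with platelets. Pf4 (chr5:90772435-90773383, plus strand, 3 exons) encodes platelet factor 4, a chemokine that mouse border macrophages also make. Infarcted cortex held 27.6 CPM with LEV and 34.9 CPM without at 7 d, at 5.15 CPM with LEV and 7.40 CPM without at 1 m, and at 5.36 CPM at 2 m, against 3.76 to 6.54 CPM on the non-infarcted side and 5.26 CPM in naive. F13a1 (chr13:36867178-37050244, minus strand, up to 15 exons) encodes the A subunit of coagulation factor XIII, which cross-links fibrin. Its level in infarcted cortex was 14.02 CPM with LEV and 14.5 CPM without at 7 d, at 2.60 CPM with LEV and 4.17 CPM without at 1 m, and at 4.27 CPM at 2 m, against 1.90 to 5.21 CPM on the non-infarcted side and 4.72 CPM in naive.

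For both genes only the 7 d infarcted libraries stood above the rest. The platelet marker Itga2b, the alpha subunit of the platelet fibrinogen receptor, was 4.74 to 5.97 CPM on the infarcted side and 4.50 to 6.68 CPM on the non-infarcted side, and it was not called between them. The 3 platelet genes in the data summed to 6.20 CPM with LEV and 6.21 CPM without in the infarcted 7 d libraries, against 5.74 CPM with LEV and 4.95 CPM without on the other side. That sum was mostly Itga2b, as Gp9 did not exceed 0.213 CPM and Alox12 0.741 CPM in any library. The list held 8 platelet genes, and Ppbp, Gp1ba, Gp5, Treml1 and Tubb1 were not among the genes measured.

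Arg1 (chr10:24915221-24927484, minus strand, 8 exons) encodes arginase 1, which turns arginine into ornithine and urea and marks alternatively activated macrophages. It held 65 tags with LEV and 135 tags without in the infarcted 7 d libraries, 3.77 CPM with LEV and 8.14 CPM without. In the other 9 libraries it held 0 to 6 tags, at most 0.364 CPM, which was in the non-infarcted 2 m library. Its antisense neighbour Med23 did not share its tags.

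Between the sides the 10 genes summed to 867.3 CPM with LEV and 1055 CPM without on the infarcted side at 7 d, 88.1 CPM with LEV and 586.0 CPM without at 1 m, and 142.5 CPM at 2 m. The non-infarcted sums were 35.2 to 46.4 CPM and the naive sum was 33.4 CPM. The infarcted sum was 23.2-fold higher with LEV and 22.7-fold higher without at 7 d, 2.23-fold higher with LEV and 16.6-fold higher without at 1 m, and 3.82-fold higher at 2 m.

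For single genes the 7 d infarcted to non-infarcted ratios without LEV were 33.4 for Lyz2 (95% interval 30.3 to 37.0), 29.5 for Wfdc17 (23.8 to 37.0), 21.4 for Ms4a7 (16.5 to 28.4), 9.40 for Cd36 (6.54 to 13.9), 7.75 for Pf4 (6.13 to 9.90) and 3.58 for F13a1 (2.74 to 4.72). That of Arg1, over 4 tags, was 36.6 (13.96 to 136), and that of Cd5l, over 3 tags, was 48.8 (16.3 to 240). Mrc1 stood at 1.67 (1.17 to 2.39) and Cd163 at 1.05 (0.648 to 1.72). Without LEV at 1 m Cd5l had 345 tags on the infarcted side and 0 on the non-infarcted side. The exact 95% interval of that ratio, from the tags as counted, had a lower limit of 91.98-fold and no upper limit.

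Over the 5 states, limma on log2(CPM + 1) with state as a factor gave 6 of the 10 genes as higher on the infarcted side and 0 as lower. The log2 differences were 3.83 ± 0.52 (standard error) for Lyz2, 2.98 ± 0.38 for Ms4a7, 2.78 ± 0.54 for Wfdc17, 2.44 ± 0.50 for Cd5l, 2.19 ± 0.37 for Cd36 and 0.58 ± 0.13 for Mrc1. Those not called were Pf4 at 1.09 ± 0.39, Arg1 at 0.95 ± 0.45, F13a1 at 0.71 ± 0.22 and Cd163 at 0.0005 ± 0.15. Of all 16229 genes tested, 1136 were called at an adjusted p below 0.05 (7.00%). All infarcted libraries were above all non-infarcted ones for Lyz2, Ms4a7, Cd5l, Wfdc17 and Mrc1, and for 3.23% of all genes. Because earlier results on this contrast were known when the genes were chosen, nothing is read from these counts. A pseudocount of 1 CPM understates the change of low genes. The edgeR fit of the recovered tags called 7 members, Arg1 added, whereas a pseudocount of 0.25 CPM alone left Arg1 uncalled. Leaving out the pair at 1 m without LEV, 0 members and 71 genes in all were called, and the differences were 3.58 for Lyz2, 2.83 for Ms4a7 and 2.29 for Cd36. Leaving out the pair at 7 d without LEV, only Ms4a7 was called, at 2.72, and 103 genes in all. Leaving out the pair at 7 d with LEV, only Lyz2 at 3.425 and Ms4a7 at 2.74 were called. Mrc1 also lost its call with no filter on low values, without the 2 m pair and without the state factor, with differences of 0.535 to 0.584.

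**Figure D2:**
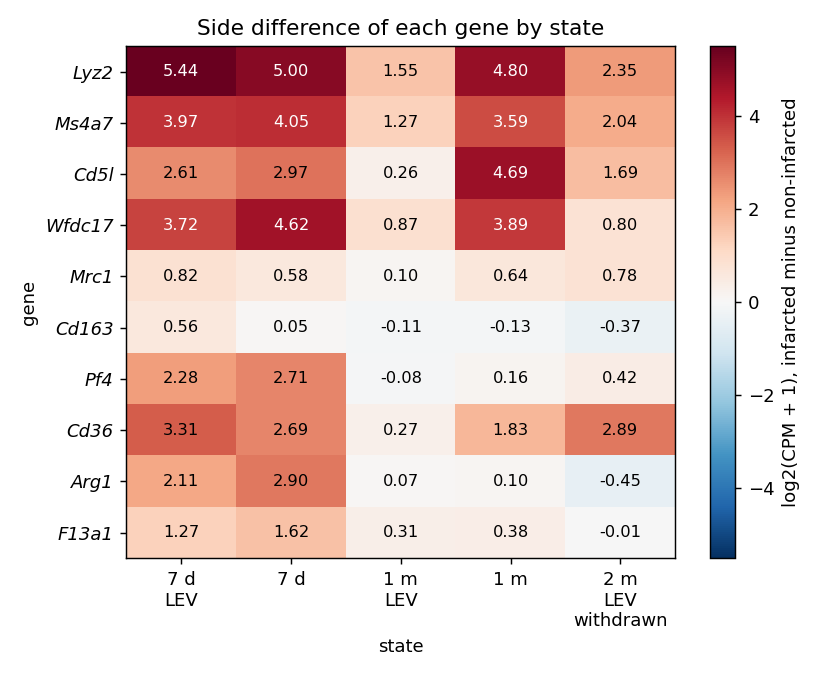
Difference of log2(CPM + 1), infarcted minus non-infarcted, for each gene (rows) and state (columns), 1 library per side. Lyz2 differs by 5.44 and 5.00 at 7 d, by 1.55 and 4.80 at 1 m (with LEV, without), and by 2.35 at 2 m, whereas Cd163 stays between −0.37 and 0.56.

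Against naive cortex, no member was called on either side. On the infarcted side the log2 differences reached 4.49 ± 1.28 for Lyz2, 3.20 ± 0.98 for Ms4a7, 2.57 ± 1.41 for Wfdc17, 2.54 ± 1.22 for Cd5l and 2.12 ± 0.93 for Cd36, each at an adjusted p of 1 (limma). The standard errors hold the differences among the 5 states, with 1 naive library, and 1 of 16367 genes was called (0.00611%), with 624 at an unadjusted p below 0.05 and 1 called by edgeR. On the non-infarcted side 8 members passed the filter on low values, and limma and edgeR called 0 of 15983 genes (0%), with 151 at an unadjusted p below 0.05. Lyz2 had the largest member difference there, 0.66 ± 0.28, and was above naive in all 5 states. The ratio to naive was 1.39 with LEV and 2.24 without at 7 d, 1.79 with LEV and 1.27 without at 1 m, and 1.64 at 2 m, with intervals above 1. The non-infarcted 7 d library without LEV, the highest of these for Lyz2, also had the highest sum of neutrophil genes, 182.8 CPM against 9.41 to 22.2 CPM in the other 4. Neutrophils make Lyz2 too, and their part in its level was not tested.

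At 1 m most members stood lower on the infarcted side than at 7 d. Without LEV, the 1 m level was 4.72-fold lower than the 7 d level for Pf4 (3.82 to 5.88), 3.49-fold lower for F13a1 (2.61 to 4.73), 3.36-fold lower for Cd163 (1.59 to 7.93), 2.93-fold lower for Cd36 (2.28 to 3.79), 2.29-fold lower for Ms4a7 (2.04 to 2.56) and 1.97-fold lower for Lyz2 (1.91 to 2.03). Wfdc17 was 1.12-fold lower (1.05 to 1.19), Mrc1 1.34-fold lower with an interval that included no change (0.936 to 1.93), and Cd5l 3.04-fold higher (2.49 to 3.74). Arg1 had 1 tag at 1 m, a ratio of 0.00883 to its 7 d level (0.000222 to 0.05001).

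With LEV the 1 m level was lower in all 10 members, 18.4-fold for Cd5l (8.14 to 51.2), 11.95-fold for Lyz2 (11.2 to 12.7), 10.5-fold for Cd36 (7.03 to 16.2), 8.01-fold for Ms4a7 (6.67 to 9.68) and 6.63-fold for Wfdc17 (5.80 to 7.60). Pf4, F13a1, Cd163 and Mrc1 were lower by 5.35, 5.39, 2.69 and 1.80-fold. Arg1 again had 1 tag. The intervals of Pf4, F13a1, Cd163 and Mrc1 overlapped between the ratios with and without LEV, and Cd5l had opposite directions.

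In the limma fit of time and LEV together, 8 members were called as lower at 1 m on the infarcted side and 0 as higher, and 16.7% of 16399 genes were called. The log2 differences ran from −2.64 ± 0.24 for Arg1 to −0.91 ± 0.23 for Cd163, and Cd5l at −0.43 ± 0.35 and Mrc1 at −0.51 ± 0.22 were not called. The fit takes 1 time difference with and without LEV, but the 2 pairs were unlike for some members. The log2 difference was −0.165 without LEV and −2.64 with LEV for Wfdc17, and −0.974 and −3.56 for Lyz2. For Pf4 it was −2.10 and −2.22. The standard errors and p-values do not measure how far such pairs lie apart. On the non-infarcted side 1 of 8 members tested was called, F13a1 at −0.72 ± 0.22, where 12.4% of 15931 genes were. That call was lost without a filter on low values, with a minimum mean of 5 CPM, with median centring and in edgeR. The time difference itself differed between the sides for 7 members and 5.47% of 16228 genes: Pf4 at −2.46, Arg1 at −2.42, Lyz2 at −2.05, Cd36 at −1.95, Wfdc17 at −1.79, Ms4a7 at −1.58 and F13a1 at −1.10. With values centred on the median gene, Arg1 and Pf4 were still called. This fit pools the states with and without LEV. Without LEV the infarcted minus non-infarcted log2 difference of Lyz2 was 5.00 at 7 d and 4.80 at 1 m. With LEV it was 5.44 and 1.55. For Pf4 it was 2.71 and 0.156 without LEV, and 2.28 and −0.0842 with LEV. These time values were also known in part when the genes were chosen, and nothing is read from the counts.

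LEV went with lower levels of 4 members on the infarcted side, further at 1 m than at 7 d. At 1 m the infarcted library with LEV was 79.3-fold lower than the one without for Cd5l (36.1 to 218), 9.50-fold lower for Wfdc17 (8.32 to 10.9), 7.05-fold lower for Lyz2 (6.60 to 7.54), 4.37-fold lower for Ms4a7 (3.58 to 5.35) and 4.19-fold lower for Cd36 (2.68 to 6.73). F13a1 was 1.60-fold lower (1.08 to 2.38) and Pf4 1.44-fold lower (1.08 to 1.91). The intervals of Mrc1, 1.24-fold lower (0.834 to 1.83), and of Cd163, 1.53-fold higher (0.660 to 3.84), included no change, and both Arg1 libraries were at 1 tag.

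At 7 d the ratios of LEV to no LEV lay nearer to 1 for Cd5l, Wfdc17, Lyz2, Ms4a7 and Cd36, with intervals apart from those at 1 m, while those of Pf4 overlapped its 1 m interval. The 7 d ratios were 0.862 for Lyz2 (0.840 to 0.884), 0.854 for Cd36 (0.718 to 1.01), 0.802 for Ms4a7 (0.735 to 0.875), 0.790 for Pf4 (0.699 to 0.894), 0.705 for Cd5l (0.538 to 0.921), 0.622 for Wfdc17 (0.583 to 0.664) and 0.463 for Arg1 (0.339 to 0.627), which could be compared at 7 d alone. F13a1 at 0.965, Mrc1 at 1.09 and Cd163 at 1.23 had intervals that included 1.

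On the non-infarcted side the ratios had no common direction. Lyz2 was at 0.619 (0.528 to 0.725) at 7 d and at 1.40 (1.17 to 1.69) at 1 m, and Cd36 at 0.319 (0.145 to 0.647) at 7 d, from 11 tags with LEV, and at 1.06 (0.506 to 2.30) at 1 m. Cd5l was at or under the floor in all 4 libraries.

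**Figure D3:**
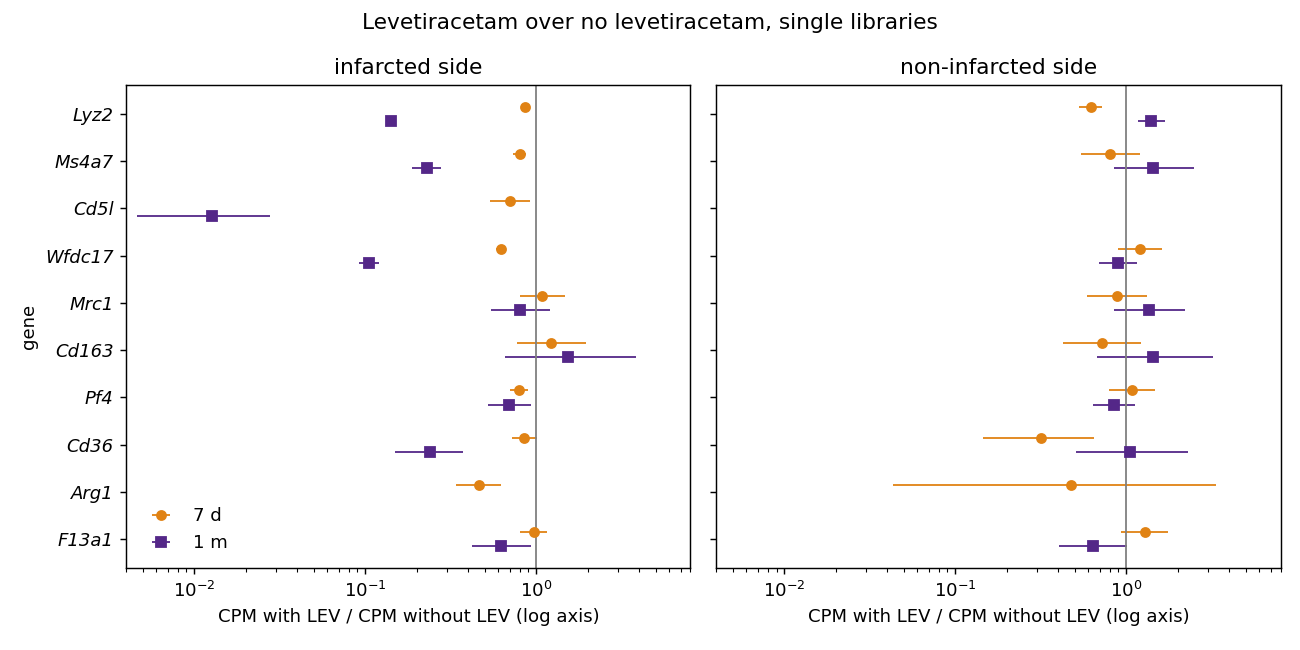
Ratio of CPM with LEV to CPM without LEV (log axis) of each gene in single libraries at 7 d (circles) and 1 m (squares), infarcted side left and non-infarcted side right, with exact 95% intervals; genes with both libraries at or under the floor are left out. At 1 m on the infarcted side Cd5l, Wfdc17, Lyz2, Ms4a7 and Cd36 lie at 0.0126 to 0.239.

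In the limma fit over 7 d and 1 m, the log2 difference of LEV minus no LEV on the infarcted side was −1.92 ± 0.23 for Wfdc17 (adjusted p = 7.16e-07), −2.37 ± 0.35 for Cd5l (adjusted p = 8.24e-05), −1.50 ± 0.24 for Lyz2 (adjusted p = 0.000161) and −1.15 ± 0.20 for Ms4a7 (adjusted p = 0.000611), each lower in both pairs of libraries. Cd36 at −0.87 ± 0.22 (adjusted p = 0.0571) and the other 5 members were not called by limma, and 0.518% of 16399 genes were. On the non-infarcted side 0 of 8 members were called and 1 of 15931 genes (0.00628%), and the member with the largest difference there, Cd36 at −0.40 ± 0.26, had an adjusted p of 0.997 (limma). At an unadjusted p below 0.05 there were 798 genes on that side, and edgeR called 3, none of them a member. The LEV difference itself differed between the sides for the same 4 members, Cd5l at −2.39, Wfdc17 at −1.96, Lyz2 at −1.41 and Ms4a7 at −1.20, and for 0.173% of 16228 genes. As the genes were chosen with earlier results of these libraries known, nothing is read from these LEV counts or p-values.

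Both fits have 1 residual degree of freedom and borrow their spread from other genes, with prior degrees of freedom of 45.3 for the infarcted fit and 64.4 for the side difference. They take 1 LEV difference for both times, but the 2 infarcted pairs were unlike. The log2 difference was −0.214 at 7 d and −2.80 at 1 m for Lyz2, and −0.440 and −4.30 for Cd5l. The standard errors and p-values of such genes therefore do not measure how far their own 2 pairs lie apart. On the infarcted side 0 of the 4 were called in edgeR and with LEV as the only factor, and only Wfdc17 with no filter on low values or with median centring. For the side difference 0 were called with median centring or with LEV as the only factor, and only Wfdc17 with a pseudocount of 0.25 CPM or with no filter. No edgeR fit was run there. Other lists moved in the same libraries. Homeostatic microglia genes summed to 543.2 CPM with LEV and 523.3 CPM without at 1 m, with 0 of 11 called for LEV, while 3 of 7 phagocyte activation genes, 2 of 8 fibroblast genes and 2 of 5 neutrophil genes fell with LEV (limma). Of red cell genes 1 of 2 fell, Hbb-bs by 0.97, and of neuron genes 1 of 6 rose, Slc17a7 by 0.74. These counts stand against 0.518% of all genes. On the non-infarcted side Hbb-bs was 25.2 CPM with LEV and 84.8 CPM without at 7 d. Slc17a7 was 1738 CPM with LEV and 861 CPM without there at 1 m. Lgals3, which encodes galectin-3 of phagocytes, fell by 1.33 (adjusted p = 4.12e-05), the fibrillar collagen Col3a1 by 1.38 (adjusted p = 0.00261) and the neutrophil granule gene Camp by 1.51 (adjusted p = 0.000526). Neutrophil genes summed to 34.5 CPM with LEV and 83.5 CPM without at 7 d and to 25.5 CPM with LEV and 32.1 CPM without at 1 m, and their part in the Lyz2 difference was not tested. On the non-infarcted side at 7 d that sum was 21.6 CPM with LEV and 182.8 CPM without, and for the LEV difference between the sides 3 of 6 neutrophil genes were called as higher, opposite to the 4 members. With 1 library per group, differences between mice and an effect of the drug cannot be told apart.

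After withdrawal of LEV at 2 m, the infarcted library had higher levels than the 1 m library with LEV for several members. Cd36 was 10.3-fold higher (6.91 to 15.9), Cd5l 7.12-fold higher (2.99 to 20.6), Ms4a7 2.25-fold higher (1.82 to 2.79), Cd163 1.90-fold higher (1.05 to 3.54), F13a1 1.64-fold higher (1.13 to 2.40) and Lyz2 1.61-fold higher (1.49 to 1.75). Wfdc17 was 1.73-fold lower (1.40 to 2.15), and Mrc1 and Pf4 had intervals that included no change. In the non-infarcted 2 m library, relative to the non-infarcted 1 m library with LEV, Cd163 was 2.39-fold higher (1.43 to 4.10), F13a1 2.26-fold higher (1.51 to 3.42) and Wfdc17 1.71-fold lower (1.27 to 2.34). Mrc1 was 1.75-fold lower there (1.08 to 2.90) and Pf4 1.47-fold lower (1.07 to 2.03), unlike on the infarcted side, where both intervals included no change. For each of these genes the intervals of both sides overlapped. On the infarcted side, set against the 1 m library without LEV, the 2 m library was 16.4-fold lower for Wfdc17 (13.8 to 19.8), 11.1-fold lower for Cd5l (7.99 to 15.9) and 4.37-fold lower for Lyz2 (4.13 to 4.63). Ms4a7 was 1.94-fold lower (1.66 to 2.27) and Pf4 1.38-fold lower (1.03 to 1.85). Cd36 was 2.46-fold higher (1.91 to 3.19) and Cd163 2.91-fold higher (1.36 to 6.92), the latter over 9 tags. The intervals of Mrc1 and F13a1 included no change. Time and withdrawal change together in these ratios and cannot be told apart.

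The 10 genes were also set beside lists of the pathways they belong to, as counts of genes called over the 5 states on the infarcted side relative to the non-infarcted. Of the other scavenger receptors 6 of 10 rose and 0 fell, with a median log2 difference of 1.22 against 0.01 for all genes. Among them were Clec7a at 3.24, a receptor for fungal glucans, the lysosomal glycoprotein Cd68 at 2.44, which is also in the phagocyte activation list, and Cxcl16, a chemokine that also binds oxidised lipid, at 1.84. The list of lipid uptake and use rose in 7 of 11, with the lipid droplet coat Plin2 at 2.43, the cholesterol exporter Abca1 at 1.80 and the fatty acid carrier Fabp4 at 1.40. Haem and iron handling, the process Cd163 serves, rose in 1 of 8, haem oxygenase Hmox1 at 1.48. Around Arg1, 3 of 10 genes rose, the interleukin-4 receptor Il4ra at 0.83, the arginine transporter Slc7a2 at 0.60 and Stat6, which acts below that receptor, at 0.45. Around F13a1, 3 of 8 coagulation and fibrinolysis genes rose, among them the urokinase receptor Plaur at 1.15, whereas urokinase itself, Plau, stood at 1.12 and was not called.

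Of the regulators of macrophage identity, 7 of 11 rose, with Irf8 at 1.56, Spi1, which encodes PU.1, at 1.35, and Runx1 at 1.34. With LEV 0 of 12 were called on the infarcted side: Spi1 was 36.2 CPM with LEV and 40.1 CPM without at 7 d, and 19.7 CPM with LEV and 19.5 CPM without at 1 m. Of paralogues of the members 4 of 9 rose, and Ms4a6c at 1.81 and Ms4a6d at 1.31 were the highest called. All 7 phagocyte activation genes rose, led by Lgals3 at 4.55, Gpnmb at 4.15 and Spp1 at 3.35.

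Lists of other cells differed. Homeostatic microglia rose in 7 of 11 (Olfml3 at 1.36), fibroblasts in 6 of 8 (Col3a1 at 3.04), monocytes in 2 of 3 tested, S100a4 at 1.44 and Plac8 at 1.42, endothelial cells in 2 of 10 and neutrophils in 1 of 6. Of 5 other border macrophage genes tested 0 were called, with Stab1 at 1.41, Folr2 at 0.91 and Cbr2 at 0.55, and the platelet, dendritic cell, lymphocyte, red cell and neuron lists held 0. That average hides a course over time. At 7 d without LEV, Stab1 was 27.1 CPM on the infarcted and 4.17 CPM on the non-infarcted side, and Folr2 4.64 and 0.445 CPM. On the infarcted side 5 of 6 border genes tested were called as lower at 1 m than at 7 d and 0 as higher, against 16.7% of all genes. These lists too were chosen with earlier results known, and the share of each that was called between the sides stands against 7.00% of all genes.

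**Figure D4:**
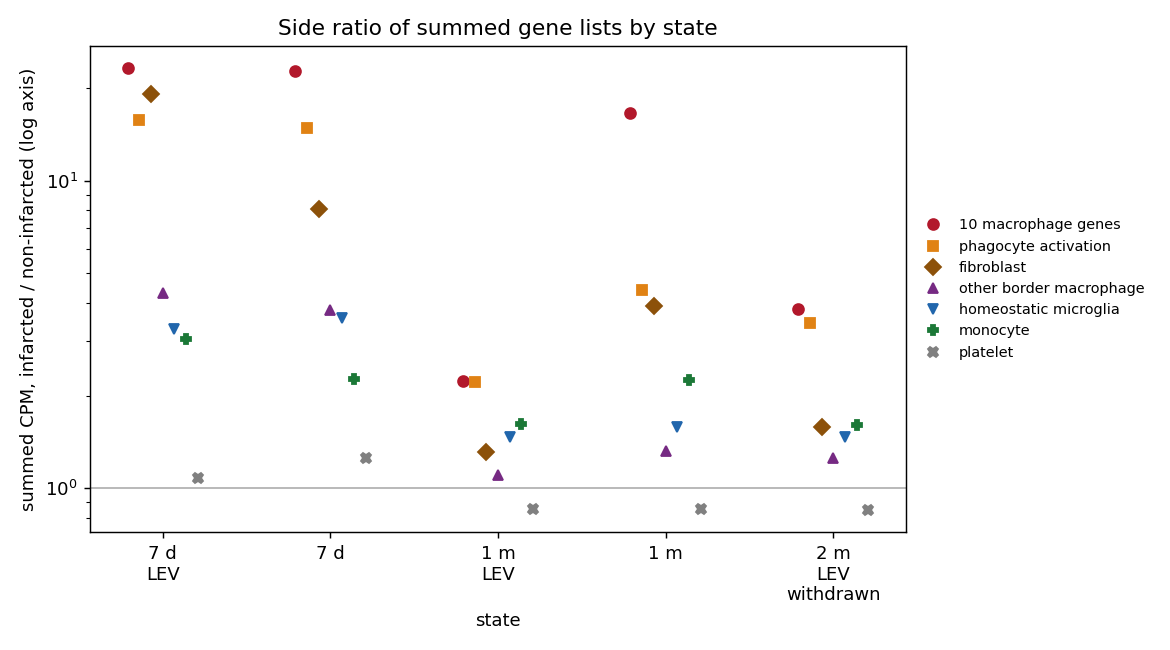
Ratio of the summed CPM of each gene list, infarcted over non-infarcted (log axis), in the 5 states, 1 library per side. The 10 macrophage genes lie at 23.2 and 22.7 at 7 d (with LEV, without), 2.23 and 16.6 at 1 m and 3.82 at 2 m, homeostatic microglia between 1.47 and 3.58 and platelet genes between 0.85 and 1.25.

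At 1 m the infarcted to non-infarcted ratios with and without LEV were apart for some lists and close for others. The 10 macrophage genes stood at 2.23 with LEV and 16.6 without, phagocyte activation genes at 2.22 with LEV and 4.40 without, fibroblast genes at 1.32 with LEV and 3.91 without, and homeostatic microglia at 1.47 with LEV and 1.59 without. Platelet genes stood at 0.86 in both. At 7 d the ratios were 15.7 with LEV and 14.8 without for phagocyte activation genes, and 3.30 and 3.58 for homeostatic microglia. Fibroblast genes were apart in the other direction at 7 d, at 19.2 with LEV and 8.07 without.

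The 5 other genes whose log2(CPM + 1) was most like the mean standardised level of the 10 over the 11 libraries were Tmem106a (Pearson r = 0.994), Ms4a6c, a relative of Ms4a7 (0.991), Cpxm1 of the carboxypeptidase X family (0.990), Arpc1b, a subunit of the actin-branching Arp2/3 complex (0.990), and Milr1, an inhibitory immunoglobulin-like receptor of mast cells and myeloid cells (0.989). Tmem106a stood at 16.1 CPM with LEV and 14.5 CPM without at 7 d on the infarcted side, at 2.19 CPM with LEV and 5.24 CPM without at 1 m and at 4.45 CPM at 2 m, against 1.24 to 2.17 CPM on the non-infarcted side. Arpc1b, the most abundant of the 5, was 66.6 CPM with LEV and 67.7 CPM without at 7 d, 18.0 CPM with LEV and 36.9 CPM without at 1 m and 28.2 CPM at 2 m, against 13.4 to 19.5 CPM. The points share libraries, depth and a strong difference between the sides, and with a pseudocount of 0.25 CPM 3 of the 5 stayed, with rank correlation 0.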

How the data were processed

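CAGE tags were measured in 11 mouse cortex libraries, 1 per group, grouped by the labels. The deposited values are CPM per gene. GRCm38, DESeq2 1.20.0, HISAT2 2.0.5 and BWA 0.7.17 are listed, with no role, in the submitters' processing notes. All values are whole tags within 0.01 of a tag, so tags were recovered; 92.3% to 97.3% of a library's tags fall in the genes listed. Gene positions are from GENCODE M21 (99.8% of identifiers matched), promoters from RefSeq (GRCm38.p6).

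Log2(CPM + 1) of genes with a mean of at least 1 CPM in the libraries compared was fitted with limma 3.58.1 (mean-variance trend, R 4.3.3), adjusted by Benjamini-Hochberg over all genes and called below 0.05. The sides were compared over the 5 states, state being a factor, each side against naive, and time and LEV with both factors over 7 d and 1 m, per side and on the side difference. The fit was tested on simulated data. Ratios of single libraries have exact 95% intervals on tags. Alternatives were a pseudocount of 0.25 CPM, no filter, a mean of at least 5 CPM, median centring, edgeR 4.0.16 (quasi-likelihood, TMM) on the recovered tags, simpler models and leaving out each state. Single pairs for time and LEV were added after seeing the data. Python 3.11.15 with pandas 2.3.3, numpy 2.4.6, scipy 1.17.1 and matplotlib 3.10.9 was used.

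The members and all lists were chosen with earlier results of these data known. Named genes are the 10 members, the 3 genes of each list with the largest side difference, and the 5 genes of most similar pattern; genes named for other list results, such as Ly6c2, Ccr2 and Lyve1, were picked after their values were seen.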

Additional observations from a re-analysis of the deposited data

Results flagged for a closer look

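The effect of time differed between the sides in 7 members and in 5.47% of all genes. The change at 1 m relative to 7 d was lower on the infarcted than on the non-infarcted side by a log2 of −2.46 for Pf4, −2.42 for Arg1, −2.05 for Lyz2, −1.95 for Cd36, −1.79 for Wfdc17, −1.58 for Ms4a7 and −1.10 for F13a1, each below an adjusted p of 0.05 in limma. These values pool the states with and without LEV, which were unlike for Lyz2, Ms4a7, Wfdc17 and Cd36 and more alike for Pf4, Arg1 and F13a1. Without LEV the infarcted minus non-infarcted difference of Wfdc17 was 4.62 at 7 d and 3.89 at 1 m. With LEV it was 3.72 and 0.874. The standard errors and p-values do not measure how far such states lie apart. With median centring 2 of the 7, Arg1 and Pf4, were called, and with time as the only factor 4. The effect of LEV differed between the sides in 4 members and in 0.173% of all genes, at −2.39 for Cd5l (adjusted p = 0.000289), −1.96 for Wfdc17 (adjusted p = 2.7e-08), −1.41 for Lyz2 (adjusted p = 0.00324) and −1.20 for Ms4a7 (adjusted p = 0.0206). Of these 4, 0 were called with median centring or with LEV as the only factor, and 1, Wfdc17, with a pseudocount of 0.25 CPM or with no filter on low values. The 1 m infarcted library with LEV enters all 11 of these differences, and the genes were chosen with earlier results of these libraries known.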

How the results depend on the processing

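Of the 10 members, 6 were called between the sides, against 1 without the untreated 7 d pair of libraries, 2 without the 7 d pair with LEV, 0 without the untreated 1 m pair, 3 without the state factor, and 5 with no filter on low values (Mrc1 lost). Over all genes the 1136 side calls became 103, 161, 71 and 245 under the first 4 of these; 88.7% of them were higher, 69.1% with median centring and 76.2% in edgeR. Of the time calls 31.6% were higher on the infarcted side (46.5% with median centring) and 48.1% on the non-infarcted side (61.1% with median centring, 70.7% in edgeR), and the infarcted 2732 became 1547 with time as the only factor. The 4 LEV calls on the infarcted side became 1 with no filter, 1 with median centring, 0 in edgeR and 0 with LEV as the only factor, and the 85 genes 11, 12, 13 and 0, or 28 with a pseudocount of 0.25 CPM and 209 with a mean of at least 5 CPM. For LEV on the side difference 4 became 1 with a pseudocount of 0.25 CPM, 1 with no filter, 0 with median centring and 0 with LEV as the only factor, and the 28 genes 7, 2, 0 and 0. The 1 time call on the non-infarcted side became 0 with no filter, with a mean of at least 5 CPM, with median centring and in edgeR, and the 7 on the side difference became 2 with median centring and 4 with time as the only factor (888 genes, 271 and 503). No edgeR fit was run for time or LEV on the side difference. Of the 5 genes of like pattern 3 stayed with a pseudocount of 0.25 CPM and 0 by rank correlation. The cause was not tested.

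Signs turned in 13 values of at most 0.14 in size, none called. Cd163 between the sides became −0.0131 with a pseudocount of 0.25 CPM, −0.0114 in edgeR, −0.0125 without the untreated 7 d pair, −0.0602 with median centring and −0.14 without the 7 d pair with LEV. On the infarcted side against naive it became 0.12 without untreated 1 m and 0.0541 without 1 m with LEV, and on the non-infarcted side 0.00600 in edgeR, 0.0897 without untreated 1 m and 0.0266 without 1 m with LEV. Against naive on the non-infarcted side Pf4 became 0.0135 without 2 m and Cd36 0.0207 without 7 d with LEV, and for LEV there Cd163 became 0.0004845 with a pseudocount of 0.25 CPM. The state factor pairs the sides by state; whether a pair shares a mouse is not given. With 1 library per group, differences between mice were not measured, and the few tags of Cd163, Arg1 and Cd5l limit their ratios.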
